A study of Homo sapiens with 8 samples.

Results

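The coding genes detected only with miR-629-3p were 105 genes, carried by 106 probes, of 18588 coding gene names on the array (0.565%). A gene belonged to the set when a probe annotated with an NM_ accession had signal well above background on both miR-629-3p arrays and on none of the other 6 arrays, and when no other probe of that gene was well above background on any of those 6. The members were thus chosen by their measured signals, so their higher signal with miR-629-3p is described here and is not tested. SAS is an established human tongue squamous carcinoma line, and the SAS/GFP cells used carry a GFP vector. They were transfected at 25 nM with a mimic of miR-629-3p, miR-874-3p or miR-210-3p, or with a negative control RNA (NC), with 2 samples in each group. All groups shared the cell line, the dose and the time of 48 h given by the labels. RNA (100 ng per sample) was labelled in 1 colour and hybridised to Agilent SurePrint G3 Human GE v3 arrays, and the study asked which genes change with miR-629-3p, a miRNA it examined for cisplatin resistance.

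A miRNA pairs with its target mRNAs mainly through the seed, bases 2 to 8 of the mature strand, and the targets lose stability or translation. The mature sequences of the 3 mimicked miRNAs (RefSeq, GRCh38.p14) are shown 5′ to 3′, with the seed in capitals, because they name the treatment of each group.
miR-629-3p: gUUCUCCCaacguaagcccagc
miR-210-3p: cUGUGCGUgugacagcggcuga
miR-874-3p: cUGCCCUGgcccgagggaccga
The 3 seeds differ, and no other human mature miRNA in the RefSeq table shares any of them. The letters that pair with the miR-629-3p seed (GGGAGAA, read on the transcript strand of the probes) were in 0 of the 105 member probes and in 151 of 25172 other coding probes (0.600%). A probe of 60 bases covers little of a transcript, so this says nothing about the rest of the transcript.

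The level above which a signal counts as detected differed between the arrays, and it was lowest on the miR-629-3p arrays. The scanner software marked a probe as well above background when its background-subtracted signal passed 5 times the array's estimate of additive error. In the units of that signal the lowest detected value was 6.75 and 7.38 for miR-629-3p, 8.10 and 7.95 for miR-210-3p, 9.92 and 11.9 for miR-874-3p and 12.3 and 11.6 for NC. The SD of the negative control spots lay between 1.06 and 1.41 on all 8 arrays and did not follow this order. The array estimate was equal to the residual of the software's spatial detrending. On the log2 scale relative to each array's 75th percentile, which is used for all levels below, the limits were -3.74 and -3.59 for miR-629-3p, -3.39 and -3.42 for miR-210-3p, -3.21 and -2.85 for miR-874-3p, and -2.84 and -2.82 for NC. Row 1 of the slide held the arrays of miR-629-3p and of miR-210-3p, and row 2 held the others, so slide row and treatment cannot be told apart between miR-629-3p and NC. The squamous epithelial markers (KRT5, KRT14, TP63, CDH1 and others) were detected on all 8 arrays, 12 of 12 genes. Their summed linear level was lowest with miR-629-3p, at 1389 and 1385, and was 1587 to 1913 on the other arrays. Their median log2 fold change against NC was -0.48, and 0 of the 12 passed an unadjusted p under 0.05 (limma) together with 2-fold.

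**Figure D1:**
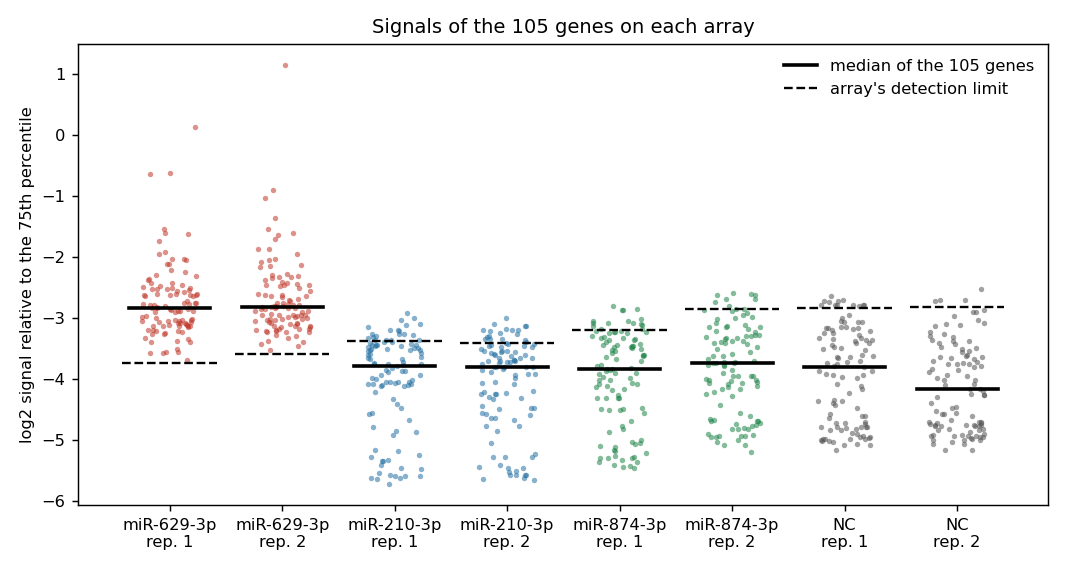
Log2 signal of the 105 genes (1 point per gene) on each of the 8 arrays, relative to the array's 75th percentile, with the median of the genes (solid line) and the detection limit of the array (dashed line). The medians are -2.84 and -2.83 for miR-629-3p and between -3.75 and -4.17 on the others, while the limits rise from -3.74 to -2.82 from left to right.

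Against these limits, the signals of the set were low. The median background-subtracted signal of the 105 genes was 10.5 and 10.1 for miR-629-3p and 5.21, 5.10, 5.50, 5.31, 5.21 and 3.86 on the miR-210-3p, miR-874-3p and NC arrays in that order. Coding probes detected on no array, a set chosen by its low signal, had medians of 0.684 and 0.458 for miR-629-3p and 0.352 and 0.494 for miR-210-3p. Their medians were 0.242 and -0.0757 for miR-874-3p and -0.431 and -0.399 for NC, so these probes too read brighter with miR-629-3p than with NC. The median member was above these levels on the other arrays too. Not every member was: COL15A1 read -2.78 and -1.80 on the NC arrays. By the software's weaker flag for a signal that is positive and significant over the background, 58 of the 105 genes passed on all 6 other arrays, 66 passed on both NC arrays and 2 (LCE5A and ATCAY) passed on none of the 6. The share of all coding probes passing this flag was not counted, so nothing about the members is read from these counts. In 70 genes both miR-629-3p signals were above every other array, and in 35 genes another array was at or above the lower miR-629-3p signal. The rule favours such an order and the share among all coding probes was not counted, so nothing is read from the 70. In 20 genes the mean miR-629-3p signal was below that of at least 1 array on which the gene counted as not detected. In bulk RNA a low signal from few cells and a low signal from every cell cannot be told apart.

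The weight of the limit was largest in genes such as INMT, an N-methyltransferase of indoleamines. Its background-subtracted signal was 6.99 and 8.09 in miR-629-3p cells, where it counted as detected, 4.78 and 2.12 in miR-210-3p cells, 9.72 and 11.8 in miR-874-3p cells, and 5.36 and 1.35 in NC cells. Both miR-874-3p arrays were thus brighter than both miR-629-3p arrays without passing their own limits. SLC34A1, a sodium phosphate cotransporter, gave 7.59 and 7.63 in miR-629-3p cells and 12.3 and 7.47 in NC cells, and the brightest of its 8 signals was on an NC array. These 2 genes, with ABHD12B (7.02 and 8.55 with miR-629-3p), ZNF221 (8.52 and 7.63) and BHLHA9 (6.83 and 8.95), had the lowest miR-629-3p means on the log2 scale (-3.53 to -3.35) and lay just inside the rule. Just outside it, SLC30A5 (mean log2 signal -2.78 with miR-629-3p), CEACAM4 (-2.67), DHX57 (-3.10), RFPL4AL1 (-3.34) and ISL2 (-3.28) were also detected on both miR-629-3p arrays, and each passed the limit of 1 other array by under 0.0240 units of signal. In all, 195 coding probes were detected on both miR-629-3p arrays and on 1 other array, which was a miR-210-3p array for 125 of them and an NC array for 16.

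When the same limit was applied to all arrays, the miR-629-3p group no longer had the most such genes by itself: miR-874-3p had as many or more, while miR-210-3p and NC still had fewer. With each array's own limit there were 105 coding genes detected only with miR-629-3p, 29 only with miR-210-3p, 25 only with miR-874-3p and 7 only with NC. With the higher of the miR-629-3p limits used for every array, the numbers were 38, 25, 47 and 21, and with the highest of the 8 limits they were 40, 26, 49 and 13. On the normalised scale the highest limit gave 39, 22, 39 and 16. Of the 105 genes, 37, 19 and 25 were among those detected only with miR-629-3p under the 3 single limits, 55 under none of them, and 9 under all of them. These 9 were DMBT1, MYH15, LCE5A, ETNPPL, LILRA4, RANBP3L, KCTD4, PNMA3 and PTGS2, a list made after the values were seen.

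**Figure D2:**
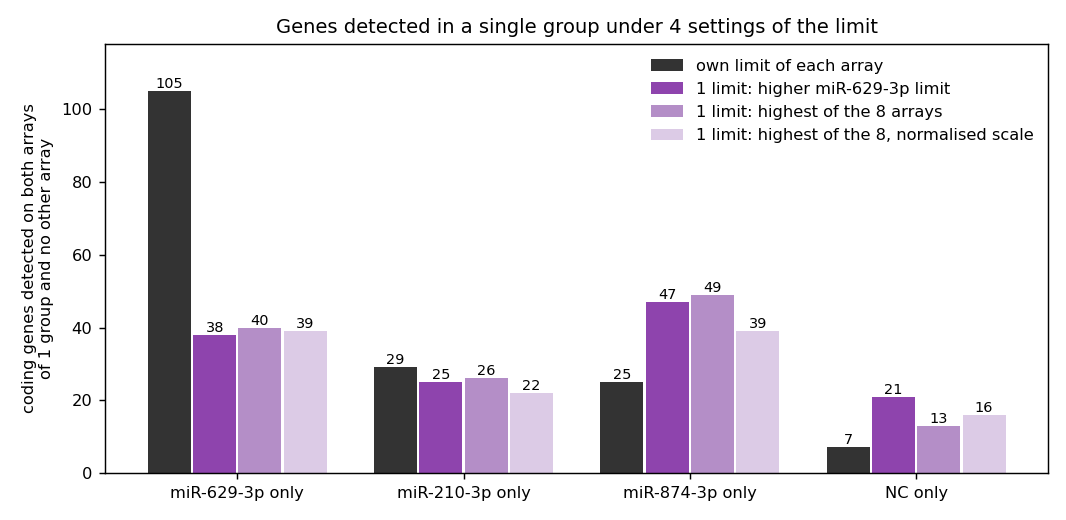
Number of coding genes detected on both arrays of 1 group and on no other array, for the 4 groups, with the own limit of each array and with 3 choices of 1 limit for all arrays. The miR-629-3p bar falls from 105 to between 38 and 40, while the miR-874-3p bar rises from 25 to between 39 and 49.

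For each gene a lower bound of the change was computed as the mean of the miR-629-3p arrays against the NC arrays, with each NC array set to the higher of its own limit and the probe's own signal. The mean miR-629-3p signal lay above the limits of all 6 other arrays in 48 of 105 genes (45.7%), and both arrays did so in 35. For the genes detected only with another group, the share above the limits of the arrays outside that group was 17 of 29 with miR-210-3p, 23 of 25 with miR-874-3p and 7 of 7 with NC. These shares depend on the order of the limits: the NC limits were the highest, so every gene detected on both NC arrays had to lie above those of the other arrays, and nothing is read from the comparison with the 45.7%. The median lower bound of the 105 genes against NC was -0.04 on the log2 scale, compared with 0.12 against miR-874-3p and 0.52 against miR-210-3p, in the order of the limits of these arrays. A bound of at least 2-fold was reached by 7 genes against NC, 9 against miR-874-3p and 23 against miR-210-3p. The 7 genes, among them MAP4K1, DMBT1, GRIN3A, CUZD1, MYH15 and KCNU1, reached it against all 3 groups, and 5 of them did so without the disagreement between replicates described below.

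**Figure D3:**
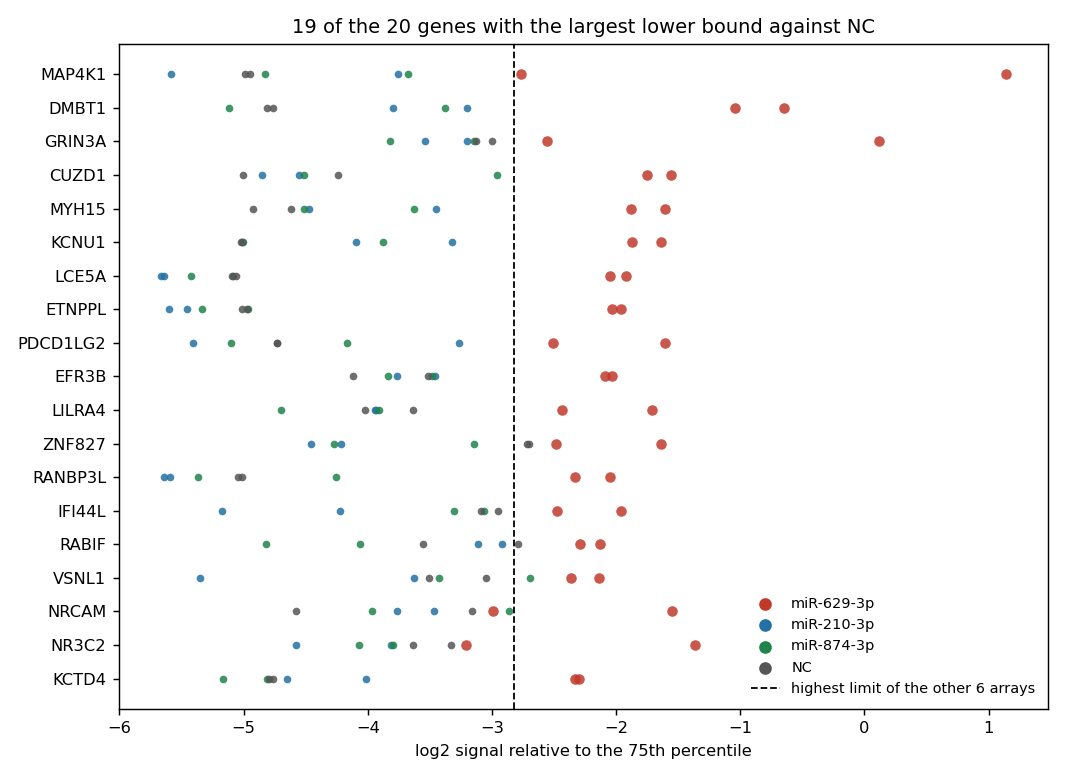
Log2 signal on each of the 8 arrays (points, coloured by group) for 19 of the 20 genes with the largest lower bound against NC, in the order of that bound from the top, with the highest limit of the other 6 arrays (dashed line, -2.82). Both miR-629-3p points lie to the right of the line except in NRCAM and NR3C2, and points of the other groups lie past the line in ZNF827, RABIF and VSNL1.

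MAP4K1, a kinase of haematopoietic cells (probe on chromosome 19, 39087689 to 39087748, hg19, the build of the array annotation), had log2 signals of -2.76 and 1.14 in miR-629-3p cells and between -5.59 and -3.68 on the other arrays. The replicates were 15.0-fold apart, and its bound of 4.06-fold fell to 1.05-fold without replicate 2.

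DMBT1 encodes a secreted scavenger receptor glycoprotein of saliva and mucosal surfaces, and CUZD1 a protein of secretory granules in the pancreas. The DMBT1 probe (chromosome 10, 124403152 to 124403211) had log2 signals of -0.65 and -1.04 in miR-629-3p cells, -3.80 and -3.20 in miR-210-3p cells, -5.12 and -3.38 in miR-874-3p cells, and -4.81 and -4.76 in NC cells. The CUZD1 probe (chromosome 10, 124591816 to 124591875) gave -1.75 and -1.55, -4.85 and -4.56, -4.51 and -2.96, and -4.24 and -5.001 in the same order of groups. In both genes the miR-629-3p arrays did not overlap with the others. The bound against NC, on the mean of the miR-629-3p arrays, was 3.96-fold (DMBT1) and 2.26-fold (CUZD1). It was 3.45-fold for DMBT1 with replicate 2 alone and 2.12-fold for CUZD1 with replicate 1 alone. The probes lie 189 kb apart, and both genes reached 2-fold with either miR-629-3p array alone. A second DMBT1 probe of the same accession (124361512 to 124361571) was not detected on any array and read -5.47 and -4.39 in miR-629-3p cells.

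The gene next to CUZD1, FAM24B, was not part of the rule and could be tested. It had the largest change of the 347 tested genes within 100 kb of a member, and was singled out with its value known. The share of these 347 genes called higher was close to that of all genes, as given below. The probe tested (chromosome 10, 124608947 to 124609990) lies 17.6 kb from that of CUZD1 and was detected on all 8 arrays, whereas a second FAM24B probe (124614808 to 124614867) was detected on none and read -5.62 and -5.44 in miR-629-3p cells and -4.76 and -4.75 in NC cells. The log2 signal was 2.07 and 2.21 in miR-629-3p cells, 0.39 and 0.32 in miR-210-3p cells, -0.66 and -0.04 in miR-874-3p cells, and -0.46 and -1.25 in NC cells. Both miR-629-3p arrays lay above all others, and FAM24B was higher than in NC cells, with a log2 fold change of 2.99 (SE 0.31; limma, adjusted p = 0.00629). RefSeq lists a readthrough transcript that joins FAM24B and CUZD1, and none of the probes used here is annotated to it. Between DMBT1 and CUZD1, neither C10orf120 nor the pseudogene DMBT1P1 had a probe detected on both miR-629-3p arrays. The probe of XLOC_l2_001771 in this interval was detected on all 8 arrays. It read -0.88 and -0.72 in miR-629-3p cells and between -1.15 and -0.04 on the other arrays. A probe without a gene name (124514435 to 124514494) was detected on both miR-629-3p arrays and on 2 others.

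For the members with the largest bounds that had an upstream sequence in the RefSeq table, the 250 bases before the annotated start are shown on the strand of the gene, with motifs in capitals. They are the genes from the paragraphs above and 2 that were kept under every single limit. DMBT1 lies at chr10:122560504-122560753 on the + strand, CUZD1 at chr10:122845858-122846107 on the - strand, LCE5A at chr1:152510553-152510802 on the + strand and ETNPPL at chr4:108763054-108763303 on the - strand (all GRCh38.p14, which differs from the build of the probes).
DMBT1: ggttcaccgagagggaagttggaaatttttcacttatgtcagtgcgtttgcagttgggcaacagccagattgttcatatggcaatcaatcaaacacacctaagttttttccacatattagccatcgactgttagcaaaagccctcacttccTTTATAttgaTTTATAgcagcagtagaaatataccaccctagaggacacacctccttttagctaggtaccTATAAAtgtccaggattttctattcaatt
CUZD1: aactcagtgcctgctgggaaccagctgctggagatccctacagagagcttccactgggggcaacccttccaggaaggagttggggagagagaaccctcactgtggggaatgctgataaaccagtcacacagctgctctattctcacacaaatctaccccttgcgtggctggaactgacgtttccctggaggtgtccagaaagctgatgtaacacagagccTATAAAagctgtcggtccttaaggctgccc
LCE5A: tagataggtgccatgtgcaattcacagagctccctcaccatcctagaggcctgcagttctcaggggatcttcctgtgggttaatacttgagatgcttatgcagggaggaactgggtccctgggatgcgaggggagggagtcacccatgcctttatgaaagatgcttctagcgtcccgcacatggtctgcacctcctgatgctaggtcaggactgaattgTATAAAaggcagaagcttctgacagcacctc
ETNPPL: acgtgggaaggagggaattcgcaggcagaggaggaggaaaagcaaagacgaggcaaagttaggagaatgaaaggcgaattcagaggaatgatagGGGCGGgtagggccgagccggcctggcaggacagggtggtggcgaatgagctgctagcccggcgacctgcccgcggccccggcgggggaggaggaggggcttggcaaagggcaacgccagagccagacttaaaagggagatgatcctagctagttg
The capitals mark a TATA box (TATAAA on either strand) in DMBT1, CUZD1 and LCE5A and a GC box (GGGCGG) in ETNPPL. An upstream sequence was matched for 79 of the 105 genes. TATAAA was in 13 of these 79 (16.5%) and in 1450 of 15764 other coding genes (9.20%), and GGGCGG in 32 (40.5%) and 8840 (56.1%), both strands counted. CCAAT was in 23 (29.1%) and 5437 (34.5%), CACGTG in 2 (2.53%) and 1240 (7.87%), and TGANTCA, the AP-1 motif, in 1 (1.27%) and 798 (5.06%). The median number of CG dinucleotides was 11 in the members and 17 in the other genes, with a median of 61.2% and 62.4% of G and C. These shares are descriptions of letters in a fixed window, with no test.

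Among the genes with a bound over 2-fold, GRIN3A, MYH15 and KCNU1 are known from neurons, muscle and sperm. GRIN3A, an NMDA receptor subunit, had log2 signals of 0.12 and -2.56 in miR-629-3p cells and between -3.82 and -3.001 on the other arrays, and its bound of 3.05-fold fell to 1.21-fold without replicate 1. MYH15, a myosin heavy chain (chromosome 3, 108099762 to 108099821), had -1.61 and -1.88 in miR-629-3p cells, -4.48 and -3.45 in miR-210-3p cells, -4.51 and -3.63 in miR-874-3p cells, and -4.62 and -4.93 in NC cells. Its miR-629-3p arrays stood clear of the others, with a bound of 2.13-fold against NC (1.93-fold with replicate 2 alone). KCNU1, the potassium channel of sperm, had -1.64 and -1.87 in miR-629-3p cells and between -5.02 and -3.32 on the other arrays. Its bound against NC was 2.11-fold (1.95-fold with replicate 2 alone).

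The next genes in the order of the bound were under 2-fold against NC. LCE5A, of the late cornified envelope, had log2 signals of -1.92 and -2.05 in miR-629-3p cells and between -5.66 and -5.06 on the other arrays. Its bound against NC was 1.80-fold. ETNPPL, which breaks down phosphoethanolamine, had -2.04 and -1.96 and between -5.60 and -4.96, with a bound of 1.78-fold. In both genes the miR-629-3p arrays stood clear of the other 6, and the bound is set by the NC limits, since the NC signals lay below them. PDCD1LG2 (PD-L2, a ligand of PD-1) reached 1.71-fold, EFR3B, a membrane anchor of a phosphoinositide kinase, 1.70-fold, LILRA4, a receptor of plasmacytoid dendritic cells, 1.69-fold, and ZNF827, a zinc finger protein, 1.57-fold. The further probes of EFR3B, and that of NRCAM below, were not detected on any array. ZNF827 read -2.70 and -2.72 on the NC arrays, above their limits on this scale without being marked as detected, and was not kept under any single limit. RANBP3L (1.56), the interferon-induced IFI44L (1.53), the Rab exchange factor RABIF (1.51), the neuronal calcium sensor VSNL1 (1.496), the adhesion molecule NRCAM (1.47), the mineralocorticoid receptor NR3C2 (1.46) and KCTD4 (1.43) followed, each as a fold over NC.

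The 2 miR-629-3p arrays differed by at least 2-fold in 5 of the 105 genes (4.76%), namely MAP4K1, GRIN3A, NRCAM (2.71-fold), NR3C2 (3.59-fold) and NOTO (2.23-fold). Among all 4161 coding probes detected on both arrays in the same range of signal, the share was 2.28%. In 92 genes the arrays agreed within 1.5-fold, and the median gene differed by 1.18-fold. The bound of NRCAM against NC was 2.42-fold with replicate 1 alone and under 1 with replicate 2 alone, and that of NR3C2 was 2.77-fold with replicate 2 alone and under 1 with replicate 1 alone.

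**Figure D4:**
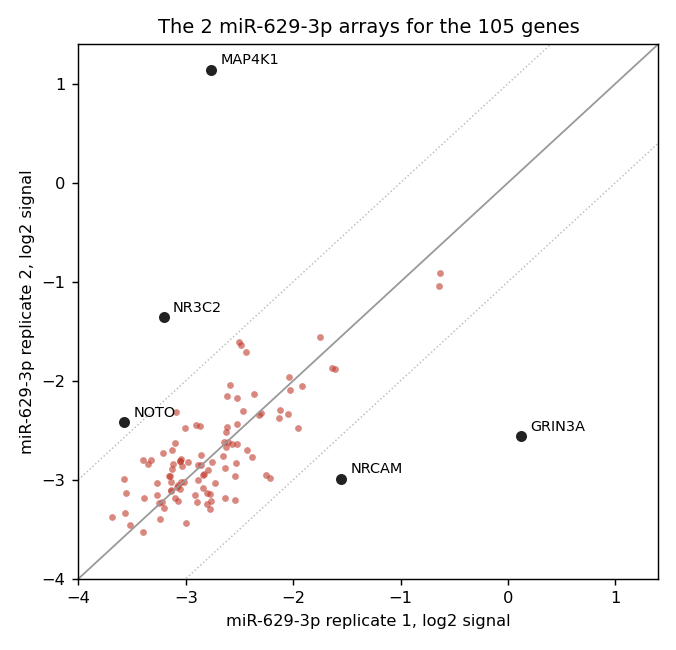
Log2 signal of the 105 genes on miR-629-3p replicate 1 (x axis) and replicate 2 (y axis), with the line of equality and dotted lines at a 2-fold difference. The 5 named genes lie outside the dotted lines, and the other genes, DMBT1 included, lie within them.

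The array carried 33 further probes for 25 of the members, all of which the rule required to be undetected on the other 6 arrays. A single one, the second probe of ATCAY, a protein of neurons, was detected on both miR-629-3p arrays (log2 signals of -3.48 and -3.01) and so met the rule itself, 4 were detected on 1 of them (those of CCDC149, FRMD3, GRIN2C and PDCD1LG2), and 28 on neither. The share on both arrays, 3.03%, was near the 2.94% of all 6224 coding probes undetected on the other 6 arrays that were detected on both miR-629-3p arrays. The share on 1 array was 12.1% against 8.45%. Probes of a gene can differ in the transcripts they bind, and whether the first probes bind other RNA was not tested.

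Grouped by what the genes are best known for, a grouping made after the values were seen, 71 of the 105 genes fell into 10 groups. The share of these groups among all coding gene names was not counted. Of all 105 members, 48 (45.7%) had a mean miR-629-3p signal above all other limits. Of 13 immune and inflammatory genes, 8 had a mean miR-629-3p signal above all other limits, among them MAP4K1, PDCD1LG2, LILRA4, IFI44L, the prostaglandin synthase PTGS2 and the ligand TNFSF18. PTGS2, outside the order of bounds given above, had log2 signals of -2.61 and -2.16 in miR-629-3p cells and between -5.63 and -4.75 on the other arrays, and its background-subtracted signals of 13.1 and 17.8 compared with 2.78 at most elsewhere. TNFSF18 and TNFSF4, costimulatory ligands whose probes lie 143 kb apart on chromosome 1, had -2.26 and -2.95, and -3.05 and -2.81, with miR-629-3p, and bounds of 1.17-fold and under 1. Of 6 leukocyte markers, which include PTPRC, CD3E, CD14, LYZ and CD68, 4 were on the array under these names, 2 were detected on all 8 arrays and 1 on none. Their summed linear level was 2.94 and 2.68 in miR-629-3p cells and 2.66 to 3.94 on the other arrays, so it was not higher with miR-629-3p. The endothelial markers (PECAM1, VWF, CDH5 and KDR), of which 2 of 4 were detected on all 8 arrays, summed to 2.53 and 2.75 in miR-629-3p cells and 1.32 to 1.83 on the other arrays, and the fibroblast markers, with DCN and LUM detected on no array, to 0.616 and 0.630 against 0.530 to 1.97. Of the endothelial markers, VWF had log2 signals of 0.96 and 1.11 in miR-629-3p cells and -0.21 to 0.30 on the other arrays. CDH5 had -1.40 and -1.24, overlapping the -1.63 to -1.32 of the other arrays. PECAM1 was far dimmer than VWF, with -2.39 and -2.77 against -5.57 to -3.49. The part of the leukocyte, endothelial and fibroblast markers in the members' signals was not tested.

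Of 12 secreted, mucosal and matrix genes, 6 were above all other limits (DMBT1, CUZD1, MSMB, COL15A1, WFDC5 and ZPLD1), as were both epidermal genes (LCE5A and SERPINB7, a protease inhibitor). Of 12 neuronal and synaptic genes, 6 were above these limits, and 8 of the 12 were positive and significant on all 6 other arrays. Of 9 transcription factors and nuclear receptors, which include HOXB5, HOXC5 and HOXD8 of 3 HOX clusters, 4 were above them. HOX genes made up 2.86% of the members (3 genes) and 0.210% of coding gene names, whereas olfactory receptors made up 1.90% and 1.95%, zinc finger genes named ZNF 1.90% and 2.63%, and solute carriers 2.86% and 1.98%. None of the 3 germ cell genes (GAGE7, CCNB3, BIRC7) and none of the 5 sensory genes lay above the limits of all other arrays. GAGE7 belongs to a family of nearly identical copies that 1 probe may not separate.

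IL36G, a cytokine of the interleukin-1 family made by keratinocytes, was the only member in any of the 11 gene lists. Its log2 signal was -3.13 and -2.89 in miR-629-3p cells, -3.98 and -3.56 in miR-210-3p cells, -3.52 and -3.38 in miR-874-3p cells, and -4.80 and -4.73 in NC cells, all miR-629-3p values being above the rest but below the NC limits. Of the other 19 cytokines and chemokines tested, 5 were called higher in miR-629-3p cells than in NC cells and 0 lower by limma at an unadjusted p under 0.05 and 2-fold, with a median log2 fold change of 0.53. At these thresholds 3.62% of all 21288 genes tested were higher and 1.64% lower, with a median of 0.02. IL1B, a central inflammatory cytokine, rose from 6.26 and 6.05 to 7.42 and 7.36, a log2 change of 1.24 (SE 0.09, adjusted p = 0.00369, limma). IL11 rose by 2.47 (SE 0.14, adjusted p = 0.00174), IL24 by 1.72 (SE 0.25, adjusted p = 0.0137) and IL1A by 1.06 (SE 0.13, adjusted p = 0.00975), while CCL2, called without adjustment, changed by 1.45 (SE 0.47, adjusted p = 0.0911). The log2 signal of IL11 was 2.26 and 1.97 in miR-629-3p cells and 2.66 and 2.37 in miR-210-3p cells.

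Genes near the members were measured by other probes and were tested in the fit across all genes. Within 100 kb of a member's probe lay 347 tested genes. In miR-629-3p cells 14 of them (4.03%) were called higher than in NC cells and 7 (2.02%) lower, close to the 3.62% and 1.64% of all genes. Their median log2 fold change was 0.02, equal to that of all genes at this rounding. With normexp background correction and quantile normalization 5 were called higher and 0 lower, and without NC replicate 2 there were 13 calls in place of 21. After adjustment 12 were higher and 6 lower. Beside FAM24B, the higher genes measured in both groups included the stress response factor DDIT3 near ARHGAP9 (log2 change 1.48, SE 0.07, adjusted p = 0.000882, limma) and the calcium-binding S100A4 near S100A1 (1.99, SE 0.47, adjusted p = 0.0433). LRG1 near PLIN4 fell by 1.48 (SE 0.07, adjusted p = 0.000882), the interferon-induced BST2 near NXNL1 fell by 1.14 (SE 0.18, adjusted p = 0.0155), and the antisense RNAs HAGLR near HOXD8 and HOXC-AS3 near HOXC5 fell by 1.06 and 1.09 (adjusted p = 0.0147 and 0.0319). For 2 neighbours of the same family as the member, OR4D6 beside OR4D10 and ZNF222 beside ZNF221, NC was below its limit. Their lower bounds against NC were 1.78-fold and 1.59-fold.

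**Figure D5:**
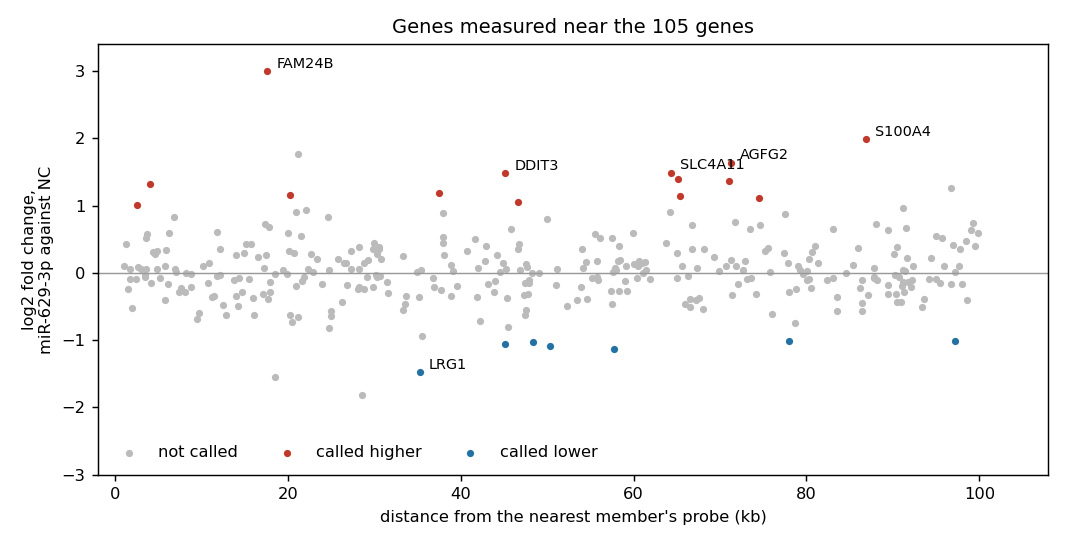
Log2 fold change of miR-629-3p against NC (y axis) for the 347 genes tested within 100 kb of a member, by the distance of their probes from the nearest member's probe (x axis, kb). Called genes (p under 0.05 and 2-fold, limma) are coloured, 14 higher and 7 lower, and FAM24B at 17.6 kb has the largest change.

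Genes that share the letters of a member's symbol gave a similar picture. Of 426 such genes in 42 families, 17 (3.99%) were called higher and 8 (1.88%) lower, and 15 and 6 after adjustment, with a median log2 fold change of 0.08. The 2 families with more than 1 higher gene were TNFSF (TNFSF15 and TNFSF9, of 7 tested), ligands of the tumour necrosis factor superfamily, and LCN (LCN8 and LCN9, of 4), where LCN2 was called lower although it was below the limit with both treatments. TNFSF15 changed by 1.66 (SE 0.39, adjusted p = 0.0429, limma) and TNFSF9 by 1.25 (SE 0.42, adjusted p = 0.0965). The most lower calls were in COL, the family of COL15A1, with 3 lower and 1 higher of 28 tested. None of the tested HOXB, HOXC and HOXD genes other than the members was called in either direction, 15 genes in all.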

How the data were processed

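The authors deposited, for each of 8 arrays, the spot intensity table of Agilent Feature Extraction 11.5.1.1, whose processed signal is background-subtracted and spatially detrended but not normalized between arrays, and a table of log2 values. After an offset of at most 0.05 per array, the latter matched log2 of the processed signal minus the 75th percentile within 0.05 for all probes, and it served as an alternative. Control spots and outlier spots were left out, repeated spots were averaged per probe on the log2 scale, and each array's 75th percentile over 58201 gene probes was subtracted. Detection is the software's flag for signal well above background. No spot was saturated, and all arrays lay on 1 slide. For tests, probes detected on both arrays of at least 1 group were kept, the brightest per gene name was used (21288 genes), and the groups were compared with limma 3.58.1 (R 4.3.3), all 8 arrays in a single fit (4 residual and 1.68 prior degrees of freedom). Adjusted p-values are Benjamini-Hochberg over all genes tested. Calls use an unadjusted p under 0.05 and 2-fold, as in the study. Nothing says whether replicates came from separate cultures, so p-values measure the spread between these samples, and the 2 arrays per group limit the precision.

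Depth has no meaning for arrays, and the share of probes detected (42.2% to 49.8% per array) sets their range. Where several probes are members (ATCAY), the brighter with miR-629-3p gives the values. The members, gene lists and tests were chosen with earlier results of these data known. Named are the 20 members with the largest bound against NC, members in a list, the 5 with the lowest signal, members with second probes where these were detected, the 5 coding probes closest to the rule without an outlier spot, and neighbours and same-stem genes that were called; others named were chosen after their values were seen. A gene among the 20 and the ion channel list are not reported here, but the counts given include that gene. Stems are at least 3 leading letters, in families of 3 to 60 tested genes. Alternatives were other flags, limits, normalizations, filters, distances and tests, the replicate number as a block, and leaving out each array. The time before extraction, the kit and the cells' name are not the same in the labels as in the paper, and the time printed is that of the labels. Exon or untranslated position of the probes was not analysed here.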

Additional observations from a re-analysis of the deposited data

How the results depend on the processing

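The number of coding genes detected only with miR-629-3p (105) was 181 without the clause on other probes of the gene and 62 with the flag for a positive and significant signal, of which 1 was among the 105. It was 39, 38 and 40 with 1 limit for all arrays (the highest on the normalised scale, the higher miR-629-3p limit, and the highest background-subtracted limit, the last pair chosen after seeing the data), and ranged from 115 to 324 when an array was left out, with the highest numbers without a miR-629-3p array. The number above all other limits (48) fell to 20 with the 5th percentile of detected signals as the limit, and was 48 to 51 when an array was left out. The 7 genes with a bound of 2-fold against NC became 4 with that percentile and 0 with normexp correction, whose offset of 50 exceeds most of these signals, and were 7 or 8 with an array left out. Neighbours called (21) numbered 5 with normexp and quantile normalization together, 35 without a filter on detection, 10 within 50 kb and 78 within 500 kb (3.68% higher and 1.45% lower), and 13 to 26 with an array left out. Same-stem genes called (25) numbered 8 with both of these, 39 without the filter and 20 to 29 with an array left out. With the replicate number as a block there were 21 neighbours and 25 same-stem genes, and the numbers did not pair the samples (correlation of deviations -0.11 to 0.03). The other alternatives stayed within 1.5 times the value given. The causes were not tested.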

Other observations

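In the other gene lists, which hold no member, genes were called with miR-629-3p against NC at an unadjusted p under 0.05 and 2-fold (limma), thresholds at which 3.62% of all genes tested were higher and 1.64% lower. Of 13 neuronal and synaptic genes tested, 2 were called higher (NEFL and MAP2). Of 20 developmental transcription factors 2 were higher (PAX8 and FOXA1), of 15 cornification genes 1 was higher (KPRP), and of 13 muscle genes 2 were lower (TNNT2 and MB). The gut and stomach list (10 tested) and the calpains (12 tested) each had 1 higher gene, CAPN8, which stands in both lists, and of 6 germ cell genes tested MAGEC1 was lower. Of 4 liver and plasma genes and 14 immune cell genes tested, 0 were called in either direction. FOXA1, MAGEC1, MB and TNNT2 had a mean miR-629-3p signal under the limits of the NC arrays.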
